A study of Mus musculus with 2 samples.

Results

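The ATP-binding cassette (ABC) transporters of the mouse heart are described here as the 50 protein-coding genes of GENCODE M21 whose symbol is Abca, Abcb, Abcc, Abcd, Abce, Abcf or Abcg followed by a digit, out of 43346 gene identifiers in the gene tables. All 50 were matched by identifier, and no measured value was used to choose them. The family members Tap1, Tap2 and Cftr carry other symbols and were kept apart. RNA came from whole heart of adult C57BL/6J mice (a standard inbred strain) aged 8 weeks, with no other genotype and no treatment named in the labels. It was poly(A)-selected, longer than 200 nucleotides, and read as stranded pairs of 76 nucleotides. There was 1 group of 2 libraries, replicates 1 and 2, with separate biosample records and 1 shared donor record, so no contrast between conditions exists. How much of the spread between the libraries is technical and how much biological was not tested.

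The libraries held 57464573 and 62912053 estimated counts, and stood apart in ways that the labels do not describe. Both were labelled as pooled from males and females, yet counts of Xist were 13725 and 13 in replicates 1 and 2, while 4 Y-linked genes summed to 0 and 2916. Sex-linked RNA thus went with replicate, and its part in other differences between the libraries cannot be told apart. A gene was called higher or lower in replicate 2 when an exact binomial test of its rounded counts, given library sizes scaled by edgeR's TMM, had a Benjamini-Hochberg adjusted p of at most 0.05 and the fold was 2 or more. This test was run on 16145 genes, those whose counts summed to 20 or more, of which 8.21% were called higher and 3.57% lower. It compares the 2 libraries, not conditions, and covers counting error only. Heart muscle markers were high in both, with all 10 detected and a summed level of 35542 and 40601 TPM (a level per transcript length, relative to all transcripts of a library). Of these, Tnni3 stood at 4631 and 11030 TPM. By counts scaled to library size, 4 of the 10 were higher in replicate 2 and 6 lower. Markers of lung epithelium summed to 0.65 TPM in replicate 1, where 4 of 8 were at 0, and to 2277 TPM in replicate 2. Erythroid markers summed to 7592 and 94907 TPM, adipocyte markers to 305 and 651 TPM, and immune markers to 196 and 416 TPM. Hepatocyte markers summed to 19.3 and 8.90 TPM, and 2 of 6 were at 0 in replicate 2. Endothelial markers stood at 425 and 516 TPM, smooth muscle and pericyte markers at 534 and 518 TPM, and fibroblast markers at 1051 and 1122 TPM. By scaled counts, 3 of the 8 endothelial markers were higher in replicate 2 and 5 lower. The part of these differences in any result was not tested.

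ABC proteins bind ATP in a pair of nucleotide-binding domains, and most couple its use to movement of a substrate across a membrane. Subfamily A moves mainly lipids, B holds the P-glycoproteins and the mitochondrial transporters, C holds the multidrug resistance proteins, D serves peroxisomes, G moves sterols and drugs, and E and F lack membrane domains and act on ribosomes. A pair of subfamily C members, Abcc8 (SUR1) and Abcc9 (SUR2), move no known substrate. They are the sulfonylurea receptors, the regulatory subunits of ATP-sensitive potassium (KATP) channels, which couple the metabolic state of a heart cell to its membrane potential.

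Abcc9 encodes different C-termini through alternative terminal coding exons, known as the SUR2A and SUR2B forms. SUR2A is the form classically described in heart muscle and SUR2B the form of smooth muscle and many other tissues. Their coding bases are shown because the transcript results turn on which of them a transcript uses. Each is given in the sense of the gene, 5′ to 3′, from GENCODE M21 transcripts on GRCm38, where Abcc9 lies on the minus strand at chr6:142587862-142702315. The proximal exon is at chr6:142594008-142594142 and the distal exon at chr6:142590369-142590503. Capitals mark positions at which the 2 exons differ when aligned without gaps.
proximal terminal coding exon: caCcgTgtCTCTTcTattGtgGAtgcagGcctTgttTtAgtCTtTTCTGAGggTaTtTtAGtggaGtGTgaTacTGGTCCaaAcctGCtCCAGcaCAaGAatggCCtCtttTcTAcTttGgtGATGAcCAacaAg
distal terminal coding exon: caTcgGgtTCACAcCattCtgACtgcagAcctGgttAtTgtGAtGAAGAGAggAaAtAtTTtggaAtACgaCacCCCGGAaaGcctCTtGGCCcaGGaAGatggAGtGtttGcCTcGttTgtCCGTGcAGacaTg
Both stretches are 135 bases long, and 66 positions differ, which leaves 51.1% of positions the same. Transcripts with the proximal exon also hold the distal one, but past their stop codon. Elsewhere the annotated coding sequences of Abcc9 differ by an optional exon of 39 bases at chr6:142648027-142648065 and another of 105 bases at chr6:142658498-142658602, shown here because skipping each defines 1 of the 4 annotated transcripts. Both lengths are multiples of 3.
optional coding exon of 39 bases: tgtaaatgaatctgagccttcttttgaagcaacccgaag
optional coding exon of 105 bases: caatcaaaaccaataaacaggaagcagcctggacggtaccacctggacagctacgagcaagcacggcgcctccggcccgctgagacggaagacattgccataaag

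The heart RNA held a broad set of ABC transporters at modest levels. With detection set at 1 TPM or more in each library, 29 of the 50 members (58%) were detected in both, beside 10677 of 21474 protein-coding genes (49.7%). The number was 30 in replicate 1, with Abca6 added, and 32 in replicate 2, with Abca4, Abcc3 and Abcg4 added. Together the members held 333 TPM in replicate 1 and 385 TPM in replicate 2, or 0.0359 ± 0.0037% of all TPM (SD, n = 2). Transcripts of mitochondrial genes took 46.5% of TPM in replicate 1 and 30.6% in replicate 2, and with TPM rescaled without them the direction between libraries turned, to 0.0622% and 0.0555%. Differences between the libraries are therefore read from counts scaled to library size, and TPM serves to compare genes. Among genes with a mean of at least 1 TPM, the median of the 31 members was 6.50 TPM and that of protein-coding genes 7.24 TPM. The 5 highest members of each library held 44.7% and 45.5% of the members' TPM.

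Abcb8, a transporter of the mitochondrial inner membrane, had the highest level, 46.51 TPM in replicate 1 and 68.36 TPM in replicate 2. Abcc9 followed at 34.69 and 30.23 TPM. Both ranges lay clear of each other and of the next member, Abcc5, an exporter of cyclic nucleotides and organic anions, at 26.91 and 24.97 TPM. From Abcc5 through Abcf1, Abcf2, Abca2 and Abcf3, each gene's range overlapped with that of its neighbour, so the order of neighbours was not resolved. Farther apart in this run, Abcc5 lay wholly above Abcf2, Abca2 and Abcf3, and Abcf1 and Abcf2 lay wholly above Abcf3. With 2 libraries an exact two-sided sign test cannot go below p = 0.5, so orders within a library are given as the number of libraries that show them. By subfamily, the summed levels in replicates 1 and 2 were 94.5 and 96.5 TPM for the 10 Abcc genes and 80.4 and 106.9 TPM for the 10 Abcb genes. The 3 Abcf genes summed to 58.9 and 70.0 TPM, the 16 Abca genes to 54.0 and 60.7 TPM, the 4 Abcd genes to 26.2 and 33.1 TPM, and the 6 Abcg genes to 8.93 and 10.01 TPM. In bulk tissue, fewer cells of a type and less RNA per cell cannot be told apart, which applies to every level given here.

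**Figure D1:**
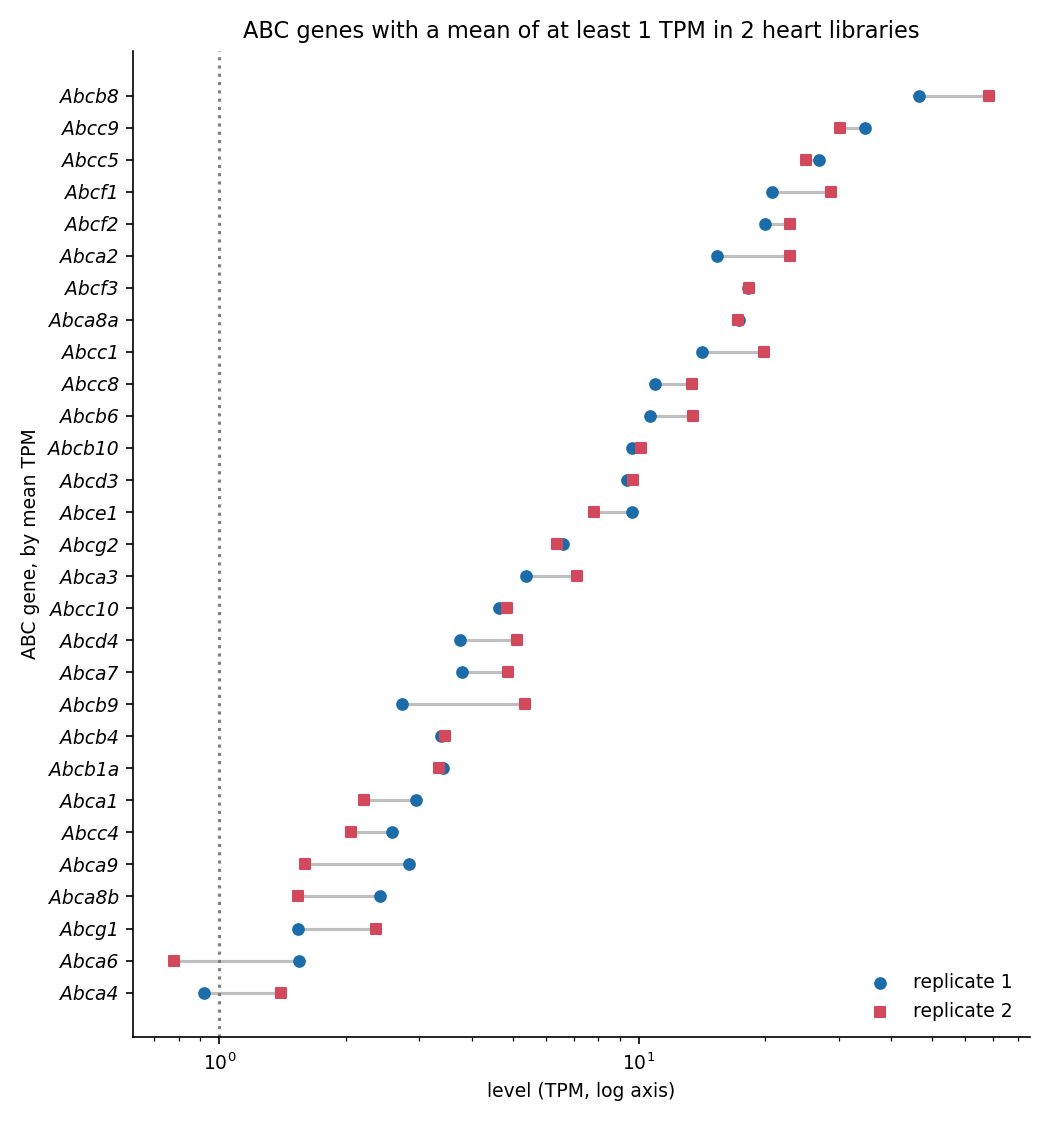
Levels of 29 of the 31 ABC genes with a mean of at least 1 TPM, in TPM on a log axis, with replicate 1 as circles, replicate 2 as squares and a grey line between them. Abcb8 stood highest in both libraries, and Abca6 lay below the dotted line at 1 TPM in replicate 2 and Abca4 in replicate 1.

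The regulatory subunits of KATP channels summed to 45.6 and 43.6 TPM in replicates 1 and 2. Abcc9 exceeded Abcc8 in both libraries, 3.18-fold in replicate 1 and 2.26-fold in replicate 2, a log2 ratio of 1.42 ± 0.35 (SD, n = 2). Abcc8 itself was present at 10.90 and 13.38 TPM, from 3228 and 4180 counts. Of the channel pores, Kcnj11 (Kir6.2) exceeded Kcnj8 (Kir6.1) in both libraries, 37.42 against 18.63 TPM in replicate 1 and 80.46 against 19.65 TPM in replicate 2. Each receptor gene lies next to a pore gene. Abcc9 and Kcnj8 are 16247 nucleotides apart on chromosome 6, and Abcc8 and Kcnj11 are 3758 nucleotides apart on chromosome 7, each pair on the same strand. The gene levels did not follow these pairs, because the higher receptor gene neighbours the lower pore gene in both libraries.

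Transcripts with the SUR2A exon made up most of Abcc9. The 3 transcripts that code through the proximal exon shown above held 69.99% of Abcc9 TPM in replicate 1 and 72.29% in replicate 2, or 71.1 ± 1.63% (SD, n = 2), a level of 24.28 and 21.85 TPM. Abcc9-203, which codes through the distal exon and corresponds to SUR2B, held 30.01% and 27.72%, or 10.41 and 8.38 TPM. Both libraries gave nearly the same division. The posterior standard deviation of the Abcc9-203 count, the authors' measure of how surely reads are divided between transcripts, was 182 of 4650 counts in replicate 1 and 194 of 3945 counts in replicate 2. Of 8 markers of smooth muscle and pericytes, cell types in which SUR2B is known, 3 had a log2 ratio above 0 and 5 below. Their sum, given above, rested mainly on Acta2 at 362 and 315 TPM. Cnn1 was called 3.12-fold higher in replicate 2, at 3.44 and 12.15 TPM, and Tagln was 1.63-fold higher and not called. Their part in this division was not tested.

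Within the proximal-exon group, Abcc9-202 held 48.12% and 52.51% of Abcc9 in replicates 1 and 2. Abcc9-201, which skips the 105-base exon, held 17.98% and 18.18%. Posterior standard deviations were 613 of 2814 and 546 of 2613 counts for Abcc9-201, and 715 of 7639 and 850 of 7658 counts for Abcc9-202. The division of reads between these models was thus less sure than the likeness of the libraries alone would show. Abcc9-204, which skips the 39-base exon, held 3.89% and 1.60%, with posterior standard deviations of 323 and 470 counts against 615 and 232 counts, so its level was not resolved from 0 in replicate 2. Since each annotated skip occurs in 1 transcript, these shares rest on the 4 annotated models and a skip combined with the other terminal exon was not measured. The shares were deposited for the models of GENCODE M4, while the exons shown above come from M21. Abcc9-202 has 7538 nucleotides in the tables and 6213 in M21, and Abcc9-203 has 7362 and 7306, while Abcc9-201 and Abcc9-204 have the same length in both. Abcc8 had a single annotated transcript in these tables.

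**Figure D2:**
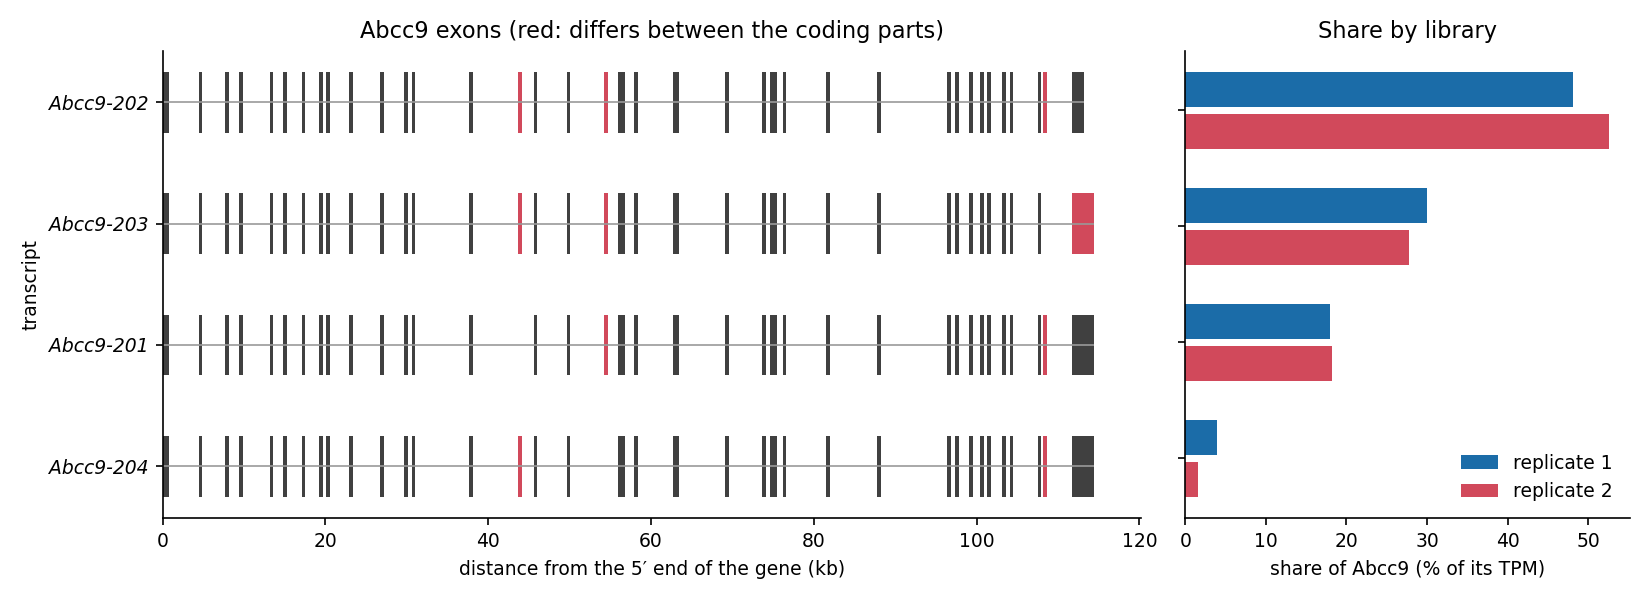
Left, exons of the 4 annotated Abcc9 transcripts by distance from the 5′ end of the gene in kb, drawn to scale with very short exons widened to stay visible, with red for the exons that differ between the coding sequences. Right, the share of Abcc9 TPM held by each transcript in percent, with 1 bar for each library. Abcc9-202 held most in both libraries, at 48.12% and 52.51%.

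Mitochondrial transporters had the highest summed level of the 10 groups of roles, 70.0 TPM in replicate 1 and 93.9 TPM in replicate 2, and all 4 were detected in both. Abcb8 made up most of it. Abcb6, which handles porphyrins and has been placed in mitochondrial and other membranes, stood at 10.63 and 13.43 TPM. Abcb10, an inner-membrane protein needed for heme synthesis in red cell precursors, was level between the libraries at 9.63 and 10.10 TPM. Scaled to library size, the counts of Abcb10 differed 1.08-fold (lower in replicate 2) and those of Abcb6 1.04-fold (higher). Erythroid markers were all called higher in replicate 2, and the part of red cell RNA in these levels was not tested. Among 14 genes of mitochondrial heme and iron-sulfur synthesis, all were detected. Isca1 (177 and 172 TPM), Alas1 (96.2 and 120.7 TPM) and Iscu (74.1 and 89.2 TPM) were highest, and Slc25a37, an iron importer of mitochondria high in red cell precursors, was the 1 called, 2.86-fold higher in replicate 2. Of the 76-base words in Abcb6 transcripts, 47.4% also occur in the annotated gene Gm29253, but the posterior standard deviation of the Abcb6 count was only 9.42 and 10.4.

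The soluble members were close behind, at 68.6 and 77.8 TPM, with all 4 detected. Abcf1, which binds ribosomes and promotes translation initiation, stood at 20.77 and 28.76 TPM. Abcf2 was at 19.96 and 22.92 TPM and Abcf3 at 18.19 and 18.32 TPM. Abce1, which splits ribosomes after termination, was lower than all 3 at 9.65 and 7.82 TPM. On transcripts of at least 1000 nucleotides only, an alternative chosen after seeing the data, Abcf3 stood at 9.53 and 9.20 TPM. Abce1 was then above Abcf3 in replicate 1 and below it in replicate 2. The level of Abcf1 over Abcf2, 1.04-fold and 1.25-fold on all transcripts, was then 0.81-fold and 0.95-fold, so this order turned. The 8 measured partners of the soluble members in ribosome recycling and stress signalling were all detected. The highest were Gcn1l1 (12.75 and 12.05 TPM), Etf1 (12.88 and 10.51 TPM) and Gspt1 (11.09 and 6.96 TPM). None of the 8 was called.

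Drug and conjugate exporters summed to 59.7 and 63.5 TPM, and 6 of 9 were detected in both. After Abcc5, the highest was Abcc1 (MRP1), which exports glutathione conjugates, at 14.14 and 19.93 TPM. Abcg2 (BCRP) was at 6.60 and 6.39 TPM, and Abcb1a, 1 of the mouse P-glycoproteins, at 3.41 and 3.33 TPM. Both are typical of capillary endothelium at tissue barriers, and Abcg2 exceeded Abcb1a 1.94-fold and 1.92-fold. Abcb1a in turn exceeded its paralog Abcb1b 4.01-fold and 3.70-fold, although 12.4% and 8.04% of their 76-base words are shared with each other or with Abcb4. A model with a retained intron, Abcb1a-202, held 26.70% and 46.44% of Abcb1a TPM. Coding models of Abcb1a held 2.39 and 1.79 TPM, still above Abcb1b at 0.85 and 0.90 TPM but by a smaller fold. Abcc10 (MRP7), another drug exporter, stood at 4.63 and 4.84 TPM and Abcc4, a cyclic nucleotide exporter, at 2.58 and 2.06 TPM. Abcc3 stood at 0.62 and 1.03 TPM, and Abcb1b and Abcc6 were below 1 TPM in both. The level of Abcc1 over Abcc4 was 5.48-fold in replicate 1 and 9.67-fold in replicate 2, but 2.95-fold and 3.47-fold on transcripts of at least 1000 nucleotides, without the short Abcc1 transcript described below. Of 13 genes of drug response and conjugation, 10 had at least 1 TPM in both libraries, led by Gstm1 (167 and 228 TPM), Gstp1 (170.2 and 222 TPM) and Gsta4 (31.8 and 29.0 TPM), and no call was made among the 10 tested.

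Lysosomal members summed to 22.7 and 34.0 TPM. Abca2, which acts in sterol and sphingolipid handling, made up most of this at 15.37 and 22.93 TPM. Abcd4, which takes part in export of vitamin B12 from lysosomes, stood at 3.74 and 5.12 TPM, and Abcb9, a peptide transporter, at 2.73 and 5.36 TPM. Abca5 was below 1 TPM in both. All 7 vitamin B12 partners of Abcd4 were detected, with Mmadhc (52.3 and 39.7 TPM), Mmachc (33.2 and 35.4 TPM) and Tcn2 (31.7 and 36.8 TPM) highest, and none was called.

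Of the 3 peroxisomal members, which import long and very long acyl chains as CoA esters, 2 were detected in both libraries. Abcd3 (PMP70) stood at 9.36 and 9.68 TPM, and Abcd2 was below 1 TPM in both. Abcd3 was 12.3-fold and 11.7-fold above Abcd2. Of 12 partner genes of peroxisomal fatty acid oxidation, 11 were detected in both libraries, with Scp2 (136.3 and 125.6 TPM) and Pex19 (61.5 and 60.1 TPM) among the highest. Slc27a2 was called 3.40-fold higher in replicate 2, at 0.30 and 0.95 TPM.

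Exporters of sterols and phospholipids were lower, at 15.9 and 19.5 TPM in all, with 4 of 7 detected in both. Abca1, which loads cholesterol and phospholipid onto apolipoprotein A-I, stood at 2.95 and 2.21 TPM, and Abcg1, which adds cholesterol to high-density lipoprotein, at 1.54 and 2.36 TPM. The libraries disagreed on which was higher. Abca7, a phospholipid transporter, was at 3.79 and 4.88 TPM, and Abca4, best known from photoreceptors, at 0.92 and 1.40 TPM. Abcg4, a sterol exporter best known from brain, stood at 0.65 and 1.12 TPM, and Abca12, a lipid transporter of the skin barrier, at 0.61 and 0.36 TPM. Abca3, the phospholipid transporter of lung surfactant, was the highest of the group at 5.39 and 7.12 TPM. Its counts scaled to library size differed 1.14-fold between the libraries. The 8 lung epithelium markers were all called higher in replicate 2, with 2 and 718 counts for the surfactant gene Sftpc and 0 and 396 for Sftpb, and the part of lung RNA in the level of Abca3 was not tested. All 13 genes of cholesterol efflux and its control by liver X receptors were detected and none was called. Apoe (156.7 and 264 TPM), Lpcat3 (39.8 and 38.5 TPM) and Nr1h2 (22.6 and 44.3 TPM) were highest.

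The Abca6 cluster, A-type genes that lie side by side and whose substrates are poorly known, summed to 24.1 and 21.1 TPM. Abca8a led at 17.33 and 17.19 TPM, 7.16-fold and 11.2-fold above its neighbour Abca8b at 2.42 and 1.54 TPM. On transcripts of at least 1000 nucleotides only, an alternative chosen after seeing the data, Abca8a stood at 10.99 and 8.38 TPM, 4.54-fold and 5.44-fold above Abca8b. Abca9 stood at 2.83 and 1.60 TPM and Abca6 at 1.55 and 0.78 TPM. These 4 genes and Abca5 form the largest run of members in the genome with gaps under 200000 nucleotides, on chromosome 11 between positions 109932190 and 110337716 (GRCm38). Abca8a and Abca8b share 34 words of 76 bases, 0.527% and 0.458% of their words.

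Members that secrete bile and sterols were nearly absent. Abcb4, the phosphatidylcholine floppase of bile, was the exception at 3.38 and 3.45 TPM. Counts of Abcb11, the bile salt export pump, were 8 in replicate 1 and 0 in replicate 2, and those of Abcc2 were 10 and 3. The sterol exporters Abcg5 and Abcg8, which work as a heterodimer, each had 4 and 0. Of the 6 hepatocyte markers 5 were called lower in replicate 2, among them Alb with 1064 and 38 counts, and their part in the counts of these liver transporters was not tested. With a floor of 3 counts, a gene at 0 may have had up to 0.0555 CPM (counts scaled to library size) in replicate 1 and 0.0464 CPM in replicate 2.

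The remaining 8 members, Abca13, Abca14, Abca15, Abca16, Abca17, Abcb5, Abcc12 and Abcg3, summed to 0.12 and 0.21 TPM. Abcb5 had no counts in either library. In all, 12 members had fewer than 20 counts over both libraries, with at most 10 counts in replicate 1 and 8 in replicate 2, and were not tested. Of the family members with other symbols, the peptide transporters Tap2 (8.72 and 14.05 TPM) and Tap1 (3.80 and 6.20 TPM) were detected, and the chloride channel Cftr stood at 0.03 and 0.02 TPM. None of these 3 was called.

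Gene levels of several members rested in part on short or noncoding transcript models. Transcript types are those of GENCODE M21, applied to the deposited levels of GENCODE M4 models, some of which have another length in M21. Across all 216 annotated member transcripts, protein-coding models held 80.2 ± 1.39% of the members' TPM (SD, n = 2), models with a retained intron 13.5 ± 0.619% and other processed transcripts 5.58 ± 0.683%. Coding models held over 95% in both libraries for 16 of the 31 members with a mean of at least 1 TPM. They held under 75% in both for 6, namely Abcc5, Abca2, Abcf3, Abca8a, Abcc10 and Abcb1a. Abcc5 was lowest, with 26.3% and 22.8% on coding models. That share counts Abcc5-207, at 8.32 and 8.88 TPM, as a retained-intron model by its M21 type. The deposited Abcc5-207 model is much longer than the M21 one, so the coding share of Abcc5 is uncertain.

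For Abcc5, Abcc5-207 led with 30.91% and 35.57% of TPM, or 53.0% and 61.9% of its counts. That model has 4875 nucleotides in the tables and 523 in GENCODE M21, where it is a retained-intron transcript, so it has been revised since. Abcc5-208, with a retained intron, held 18.64% and 13.66%, and the short coding model Abcc5-203 held 22.32% and 19.59%. The coding model Abcc5-202, of 5811 nucleotides, held only 1.91% and 1.63%, a level of 0.51 and 0.41 TPM. The gene level of Abcc5 thus counts mostly transcripts other than this model.

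Short models had large TPM from few counts in several other genes. Abca8a-206, of 299 nucleotides, had 34.0 and 55.7 counts and held 33.19% and 48.28% of Abca8a TPM. In Abcc1, the 614-nucleotide Abcc1-204 held 46.14% and 64.35% of TPM from 5.32% and 10.4% of counts. Abca2-204, of 519 nucleotides, held 40.90% and 36.08% of TPM from 3.03% and 2.69% of counts. In Abcf3, Abcf3-205 and Abcf3-202, both with a retained intron, held 26.49% and 14.19% in replicate 1 and 27.49% and 18.52% in replicate 2. Counted over transcripts of at least 1000 nucleotides only, an alternative chosen after seeing the data, Abcc1 moved from place 9 to place 15 among members with 7.62 and 7.11 TPM, Abcf3 from 7 to 13 with 9.53 and 9.20 TPM and Abca2 from 6 to 9 with 8.02 and 12.14 TPM. Abcb8 and Abcc9 kept places 1 and 2, and 29 members still had at least 1 TPM in both libraries.

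**Figure D3:**
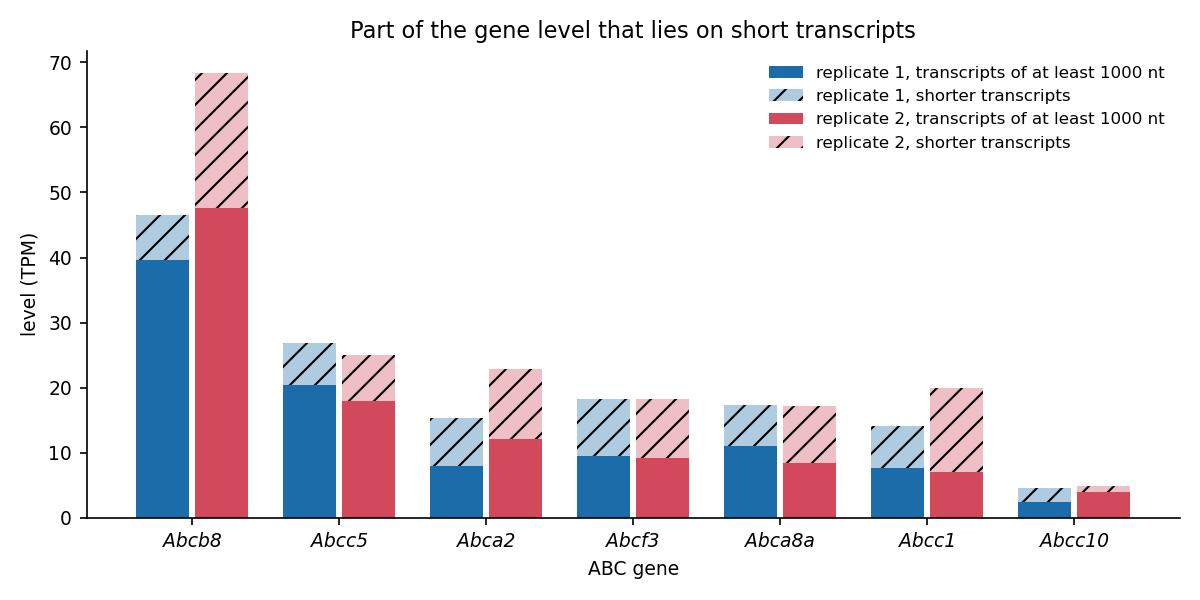
Levels in TPM of the 7 ABC genes with a mean of at least 1 TPM for which transcripts under 1000 nucleotides held at least 25% in a library, split into longer transcripts (solid) and shorter ones (hatched), with 1 bar for each library. Shorter transcripts held 46.1% and 64.3% of Abcc1.

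The transcript makeup of Abcb8 differed between the libraries. Abcb8-201, the leading coding model, held 77.20% in replicate 1 and 48.34% in replicate 2. Abcb8-203, another coding model of similar length, held 2.29% and 14.72%, with posterior standard deviations of 161 counts in 191 and 954 counts in 1902, so this division was uncertain. Abcb8-205, with a retained intron, held 11.78% and 19.04%. Abcf1 was led by Abcf1-201 (77.78% and 75.72%), Abcg2 by Abcg2-202 (56.44% and 63.00%) and Abca3 by Abca3-201 (45.05% and 32.81%). In replicate 2, Abca3-203 (31.72%) and Abca3-202 (28.34%) came close to Abca3-201. Posterior standard deviations there were 94 of 964 counts for Abca3-201, 62 of 743 for Abca3-203 and 90 of 820 for Abca3-202, so this lead was uncertain. Among the 31 members, 7 had 1 annotated transcript. Of the other 24, 21 had the same leading transcript in both libraries by TPM, and all 24 had the same by counts. The exceptions by TPM were Abca8a, Abcc1 and Abcc10.

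Most ABC transporters were not called between the libraries, as most tested genes were not. Of 38 members tested, 0 were called higher in replicate 2, where 8.21% of all 16145 tested genes were, and 2 were called lower, where 3.57% of all tested genes were. The other 36 had a fold below 2, and the matching share of all tested genes was not counted. Without the fold limit 13 members were higher and 18 lower by the adjusted p, where 32.9% and 34.9% of all tested genes were. The median log2 ratio of the members was -0.10, beside -0.01 for all tested genes.

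The 2 called members were neighbours in the Abca6 cluster. The counts of Abca6 were 459 and 231 in replicates 1 and 2, and it was 2.37-fold lower in replicate 2 (95% exact interval 2.02 to 2.79, adjusted p = 1.86e-27 in the exact test). Abca9 had 1071 and 637 counts and was 2.01-fold lower (1.82 to 2.22, adjusted p = 1.26e-44 in the exact test), just past the limit. Abca12 (1.92-fold lower) and Abca8b (1.78-fold lower) were just short of it. Highest in the other direction was Abcb9, 1.75-fold higher. All 5 members of the chromosome 11 run, Abca8b, Abca8a, Abca9, Abca6 and Abca5, had a log2 ratio below 0, and Abca8a did so on counts (1.47-fold lower) though its TPM was nearly level. These 5 genes fall in the class of lowest GC content described next, where 80.5% of all tested genes had a ratio below 0. In the fibroblast list 4 of 8 genes had a log2 ratio above 0 and 4 below. Of these only Lum was called, 2.55-fold lower in replicate 2, and it was not called after the correction for GC content described next, while Col1a1 was 1.87-fold higher and not called. The part of fibroblasts in the lower cluster counts was not tested.

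The ratios of the members followed their GC content. Among the tested genes of lowest GC content in the longest transcript (up to 46.8%, 1 of 3 equal classes), 14 of 15 members had a ratio below 0, with a median log2 ratio of -0.48, beside 80.5% of all genes and a median of -0.40. In the middle class it was 6 of 9 members with a median of -0.15, beside 54.9% of all genes and -0.05. In the class of highest GC content (above 53.1%), 1 of 14 members was below 0 with a median of 0.23, beside 18.6% of all genes and 0.35. The members thus moved with GC content as all genes did. After the smooth trend with GC content was subtracted, 0 members were called in either direction, where 7.10% of all tested genes were called higher and 2.13% lower. Abca6 then had a log2 ratio of -0.89 and Abca9 of -0.67. Abca8b at -0.42 and Abca8a at -0.18, of the same cluster, also stayed below 0. Abca5, of the same chromosome 11 run, was then at -0.08. Farthest on the other side was Abcg3 at 1.05, from 14 and 26 counts. Within the class of lowest GC content, 9 of 15 members were then below 0, with a median of -0.08.

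**Figure D4:**
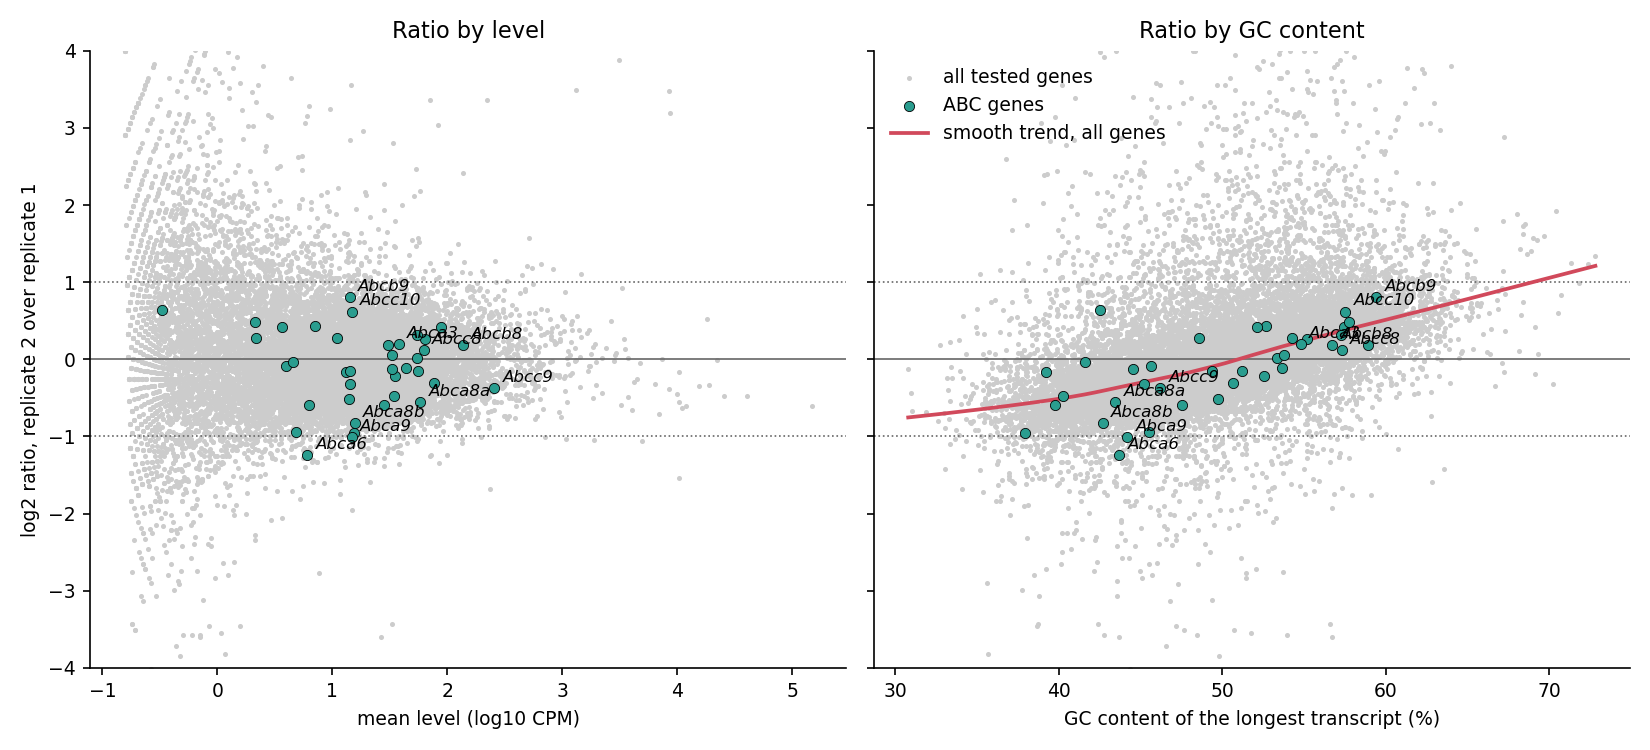
Log2 ratio of replicate 2 over replicate 1 for all tested genes (grey) and the 38 tested ABC genes (green), against mean level in log10 CPM (left) and against GC content in percent with the smooth trend of all genes in red (right). Dotted lines mark the 2-fold limit, and points beyond 4 on the log2 axis are not drawn. ABC genes moved with GC content in the direction of the trend, though not all lay on it. Abca6 was lowest at -1.25, with -0.89 left after the trend was subtracted. Abcb9 was highest at 0.81, with 0.33 left.

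Detected members had more CG dinucleotides at their promoters than the others, as detected genes did among all protein-coding genes; none of this was tested. RefSeq promoter windows on GRCm38.p6, from 250 bases before to 50 bases after a start site, were found for 38 of the 50 members, and CG dinucleotides were counted in each. The 22 members with at least 1 TPM in both libraries had a median of 23.5 CG (range 2 to 45) and the other 16 a median of 10 (range 1 to 40). All protein-coding genes had medians of 23 (n = 8445) and 5 (n = 7872). Exceptions ran both ways, since Abca8a had 4 CG, Abca9 and Abcb1a had 2 each, and Abca5, below 1 TPM, had 40. The nearly silent Abca14 had 22 and Abca17 and Abcg8 had 21 each, all more than the detected Abcc9. The windows of Abcc9 (chr6:142702225-142702524, minus strand, 16 CG) and Abcb11 (chr2:69342567-69342866, minus strand, 4 CG) are printed to show a detected and a nearly silent member, with each CG in capitals.
Abcc9 promoter: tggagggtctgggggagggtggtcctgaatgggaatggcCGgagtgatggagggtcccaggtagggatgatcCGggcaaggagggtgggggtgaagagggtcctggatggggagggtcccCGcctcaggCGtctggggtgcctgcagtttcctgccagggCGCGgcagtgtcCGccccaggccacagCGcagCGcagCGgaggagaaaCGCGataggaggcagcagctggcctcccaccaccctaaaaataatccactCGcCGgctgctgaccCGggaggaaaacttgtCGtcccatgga
Abcb11 promoter: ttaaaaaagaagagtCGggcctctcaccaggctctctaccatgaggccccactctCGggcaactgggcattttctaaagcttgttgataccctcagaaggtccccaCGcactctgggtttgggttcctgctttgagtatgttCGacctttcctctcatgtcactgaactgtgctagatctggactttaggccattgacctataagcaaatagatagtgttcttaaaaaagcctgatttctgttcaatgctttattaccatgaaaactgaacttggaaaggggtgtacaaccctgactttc
A count of CG is a description of these windows, and methylation was not measured.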

How the data were processed

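Gene and transcript tables of each library were made on mm10 with GENCODE M4, per the deposited notes. No aligner or quantification program is given in the sources used here. Expected counts, as deposited, are estimated fragments, divided between transcripts that share reads, per the file headers. TPM values, as deposited, divide counts by effective length and sum to a fixed total in each library, so a large class of RNA lowers all others, per the file headers. FPKM values, as deposited, are scaled by effective length and depth, per the file headers, and served as an alternative. Each transcript's percent of its gene was deposited by the authors, per the file headers. Posterior standard deviations, a score in counts, and lengths were other columns deposited by the authors, per the file headers. Lists of junctions and contigs on mm9 were not used.

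Identifiers without version were matched to GENCODE M21 on GRCm38 (42462 of 43346). Expected counts were rounded and compared by an exact binomial test, two-sided (2 times the smaller tail), given sizes scaled by TMM from edgeR 4.0.16 in R 4.3.3, for genes with at least 20 counts, at an adjusted p (Benjamini-Hochberg) of 0.05 and 2-fold or more. The test was tried on simulated data with counting noise only, without a GC trend or other spread between libraries, so that trial does not bear on those. GC content is that of the longest M21 transcript, with a lowess trend (span 0.3) from statsmodels 0.14.6. The log2 ratio of Abcc9 over Abcc8 used a pseudocount of 0.01 TPM, while folds and other log2 ratios between gene levels used none. In Python 3.11.15, pandas 2.3.3 and scipy 1.17.1 were used. Identity of reads was judged by 76-base words shared between transcripts. Levels and values by library were given for members with a mean of at least 1 TPM and for called members, and transcripts for Abcc8, Abcc9 and members of at least 5 TPM with 2 or more transcripts at 10% or more. Of each gene list the 3 of highest mean TPM and those called were named. Members named below these levels and the promoters shown were picked with their values in view. The members, roles and 17 lists were chosen with earlier results of these data known. Values of some single genes are left out of the text and the plot of levels. Ahsp and Gcn1 matched no gene under these symbols. Precision is limited by 1 group of 2 libraries, and intervals and floors (3 counts) cover counting error only.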

Additional observations from a re-analysis of the deposited data

How the results depend on the processing

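The number of ABC transporters called lower in replicate 2 was 2 and depended on the scaling and the limits. It was 1 with DESeq2 size factors (DESeq2 1.42.0) and 1 with total counts on genes, where Abca9 stood at -0.99 and -0.88 on the log2 scale, and 0 after correction for GC content, where Abca6 stood at -0.89 and Abca9 at -0.67. Their adjusted p stayed between 5.69e-43 and 5.32e-14 in the exact test over these 3 settings, and the fold limit decided each call. Without a fold limit 18 were lower and 13 higher. Without a count minimum it was 3, with Abcb11 (8 and 0 counts) added. The number called higher was 0 under the other settings. Total counts moved the median log2 ratio of all genes to 0.11, from -0.01. The members' share of TPM, 0.0359%, was 0.0589% without mitochondrial genes and 0.0293% on transcripts of at least 1000 nucleotides, and 0.137% as a share of expected counts, which weights long transcripts more. On transcripts of at least 1000 nucleotides the log2 ratio of Abca8a over Abca8b was 2.31, from 3.16, and that of Abcc1 over Abcc4 was 1.68, from 2.86. Leaving out each library in turn gave 30 to 32 detected members, a share of 0.0333% to 0.0385%, a log2 ratio of Abcc9 over Abcc8 of 1.18 to 1.67, a share of Abcc9-202 of 48.12% to 52.51% and of the proximal exon of 69.99% to 72.29%. The alternatives for the proximal exon and for transcript length were chosen after seeing the data. No direction turned among the results listed here for members, apart from the order of the 2 libraries' shares of TPM without mitochondrial genes. The small median log2 ratio of all genes changed sign with total counts, with DESeq2 size factors and after correction for GC content. No paired analysis was possible because there is 1 group. Depth limits the 12 members with under 20 counts, and with 2 libraries the spread between animals is not measured.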
